A study of Mus musculus with 9 samples.

Results

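The immediate early response genes described here were 10 genes picked by symbol from the feature table, out of 32285 genes counted in each of 9 single-nucleus RNA-seq (snRNA-seq) libraries of mouse epididymal adipose tissue (epiAT). They were the AP-1 genes Fos, Fosb, Jun, Junb and Jund, the AP-1 partner gene Atf3, the transcription factor genes Egr1 and Nr4a1, the response gene Ier2, and Zfp36, which encodes the RNA-binding protein tristetraprolin. All 10 symbols were found in the table of every library, and each had UMIs (counts of distinct captured RNA molecules) in every library.

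Immediate early genes are held ready for transcription and are switched on within minutes of a stimulus, before any new protein is made. Growth factors, cytokines, lipids, heat and tissue handling can all switch them on, mostly through MAP kinase signalling to the serum response factor and to CREB-family factors already bound at the promoters. Fos and Jun proteins pair to form AP-1, Atf3 forms dimers with Jun proteins and restrains inflammatory genes in macrophages, and Zfp36 protein marks inflammatory mRNAs for decay.

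All mice were male C57BL/6J without any introduced allele or drug, and each of the 9 diet groups was 1 library made from the frozen epiAT of 5 pooled mice. The chow groups were C (18 weeks old), CC (26 weeks old) and CCC (39 weeks old). The groups on high-fat diet (HFD) at harvest were H (18 weeks old, 12 weeks of HFD), HH (31 weeks old, 25 weeks of HFD), CCH (30 weeks old, chow and then a first HFD of 4 weeks) and HCH (30 weeks old, with 12 weeks of HFD, 8 weeks of chow and a second HFD of 4 weeks). The weight loss (WL) groups were HC (26 weeks old, HFD for 12 weeks and chow for 8 weeks) and HHC (39 weeks old, HFD for 25 weeks and chow for 8 weeks). By the study's methods the first control diet was a chow low in fat, and standard chow replaced it in the later chow periods.

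Single diet groups cannot be tested, since a pool of mice gives 1 value. Libraries of the same diet state were therefore taken as replicates, 3 for chow, 4 for HFD and 2 for WL, although they differ in age and in the length of feeding. The labels also carry set names, S075 for C, H, HH, CCH and HCH and S019 for CC, CCC, HC and HHC, so that C was the only chow library in the set that held all HFD libraries, and both WL libraries were in the other set. Between 4144 (CC) and 13330 (HH) nuclei per library were kept, with a median of 1941 to 3124 UMIs. Nuclei were assigned to a cell class by the markers present in them, none of which is a member, and 42.68% to 71.57% of nuclei were assigned. The 6 classes with at least 50 nuclei in every library were adipocytes (192 to 2478 nuclei), progenitors (549 to 2774), mesothelial cells (78 to 380), macrophages (252 to 2459), endothelial cells (147 to 861) and epithelial cells (52 to 194). In each of them the summed level of its own markers was above that of every other list in all 9 libraries, except that another list was higher in 3 libraries of the epithelial class. The lists are those used to assign the nuclei, so this order follows in part from the assignment. Any pair of libraries shared 8 to 55 barcodes. Levels below are in CPM, the UMIs of a gene scaled to the UMIs of a class in a library, with mitochondrial genes and Malat1 left out of the total. In mesothelial nuclei the own markers summed to 4814 to 8075 CPM over the libraries, and the largest other list to 2562 to 4864 CPM. The largest other list was at 552.6 to 1974 CPM in adipocyte nuclei.

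The members have a median length of 3852 bp, from 1522 bp for Ier2 to 47744 bp for Atf3, against a median of 17400 bp over 21951 protein-coding genes. No base of Jun, Jund, Ier2 or Zfp36 is purely intronic in the annotation, whereas 95.5% of the Atf3 gene and 82.9% of Nr4a1 are intronic. Since the libraries hold nuclear RNA with intronic reads counted, the levels are compared between samples and never between members. Jun, Junb, Jund, Atf3 and Zfp36 each overlap 1 annotated gene on the other strand (Junos, Prdx2, Gm11175, Gm24748 and Gm44710), and reads of such partners cannot be told apart unless counting used strand, which is not given in the sources used here. In GRCm38 (mm10), Fos lies on chromosome 12 from 85473890 to 85477273, Jun on chromosome 4 from 95049034 to 95052222, Junb on chromosome 8 from 84974484 to 84978718, and Atf3 on chromosome 1 from 191170296 to 191218039.

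The 150 bases before the transcription start are shown for Atf3, Fos, Junb and Jun, because the values in macrophages turn on these genes. They come from RefSeq (GRCm38.p6), read 5′ to 3′ on the strand of the gene. Capitals mark TGACG, the short form of the cyclic AMP response element to which CREB and ATF proteins bind, on either strand, and TATAAA, the TATA box.
Atf3, chr1:191183334-191183483, minus strand: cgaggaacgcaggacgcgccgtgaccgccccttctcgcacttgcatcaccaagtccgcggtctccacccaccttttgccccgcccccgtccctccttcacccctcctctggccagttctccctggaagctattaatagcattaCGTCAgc
Fos, chr12:85473740-85473889, plus strand: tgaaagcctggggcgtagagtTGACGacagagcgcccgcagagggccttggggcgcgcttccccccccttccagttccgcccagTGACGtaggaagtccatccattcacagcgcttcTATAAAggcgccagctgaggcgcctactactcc
Junb, chr8:84978749-84978898, minus strand: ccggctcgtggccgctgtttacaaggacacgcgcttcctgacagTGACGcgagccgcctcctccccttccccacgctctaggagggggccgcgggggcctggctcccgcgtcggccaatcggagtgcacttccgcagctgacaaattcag
Jun, chr4:95052223-95052372, minus strand: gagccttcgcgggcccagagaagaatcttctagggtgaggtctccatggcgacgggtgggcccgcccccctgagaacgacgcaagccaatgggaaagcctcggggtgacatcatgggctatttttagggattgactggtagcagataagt

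The RefSeq start of Atf3 lies 34706 bases inside the longest annotated gene span, and 7 bases of its window are exonic in the annotation. RefSeq promoter windows were matched for 8 of the 10 members. TGACG was found, on either strand, in 5 of these 8 windows, against 13.3% of 32851 promoter windows of the same 150 bases. It lies at −7 to −3 in Atf3, at −129 to −125 and −66 to −62 in Fos and at −106 to −102 in Junb, and the windows of Fosb and Nr4a1 also hold it. TATAAA was found at −33 to −28 in Fos and in 7.57% of all windows. The CArG box, to which serum response factor binds, was found in the window of Zfp36, which is exonic in the annotation over all 150 bases, and in 0.916% of all windows. The palindromic TGACGTCA, which contains TGACG, and the AP-1 element TGANTCA were in none of the 8 windows and in 1.36% and 4.24% of all windows. These matches describe letters and do not show that a factor binds.

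Atf3 had the largest fold range in macrophage nuclei among the members with UMIs in every library. C, CC and CCC had 13.4, 4.72 and 10.6 CPM of it. On HFD it was 209.8 CPM in H, 189.4 in HH, 16.4 in CCH and 99.85 in HCH, and after WL it was 183.7 in HC and 128.9 in HHC. Every HFD and WL library lay above every chow library, but CCH, after 4 weeks of a first HFD, lay just above C and far below the other HFD libraries, whereas both WL libraries had levels in the range of H, HH and HCH. The counts behind these levels ran from 5 UMIs in CC to 1541 in H. The 10 adipocyte markers, each with UMIs in the macrophage nuclei of every library, moved the other way, with a sum of 1304, 3444 and 1408 CPM in macrophage nuclei of C, CC and CCC, of 359.6, 471.3, 1078 and 699.2 CPM in H, HH, CCH and HCH, and of 865.7 and 687.2 CPM in HC and HHC. These sums were 9.15% to 23.8% of the level in adipocyte nuclei on chow, 2.48% to 7.81% on HFD and 6.57% to 8.02% after WL, and all chow libraries lay above all others. The 10 progenitor markers summed to 394.9 to 717.9 CPM on chow, 380.1 to 1027 CPM on HFD and 398.3 to 475.7 CPM after WL, and the mesothelial, endothelial and epithelial lists to at most 329.2 CPM in any library. The part of RNA from other classes in the levels of macrophage nuclei was not tested.

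Fos, the partner of Jun proteins in AP-1, had 13.1 CPM in C, 5.66 in CC and 12.1 in CCC. It had 125.7 CPM in H, 105.4 in HH, 20.2 in CCH and 74.2 in HCH. After WL it had 21.7 CPM in HC and 28.7 in HHC. The Fos level was thus high in H, HH and HCH, and the WL libraries lay beside CCH, above all chow libraries but below all HFD libraries other than CCH. Fosb, another Fos gene, was low, at most 6.06 CPM, in CCH, and had no UMI in CCC, where the exact interval allows up to 5.59 CPM.

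The Jun genes showed a smaller range. Jun had 12.4, 22.6 and 28.8 CPM in C, CC and CCC, then 73.1, 77.1, 13.5 and 42.3 CPM in H, HH, CCH and HCH, and 41.7 and 60.4 CPM in HC and HHC. Both WL libraries were above all chow libraries, and CCH was inside the chow range. Junb had 17.0, 17.0 and 31.8 CPM on chow, 93.4, 80.7, 14.5 and 39.4 CPM in H, HH, CCH and HCH, and 14.6 and 32.1 CPM in HC and HHC, so that for Junb both CCH and HC lay below all chow libraries. Jund, which is less dependent on stimulation than the other Jun genes, spanned 20.5 to 34.0 CPM on chow, 29.5 to 74.8 CPM on HFD and 24.2 to 42.2 CPM after WL.

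Zfp36 had 37.1, 33.0 and 28.8 CPM in C, CC and CCC and 114.9, 93.2, 44.2 and 88.8 CPM in H, HH, CCH and HCH. It had 6.67 CPM in HC and 30.2 CPM in HHC. All HFD libraries lay above all chow libraries, and HC was the lowest of the 9 libraries. HC was also the lowest library for Zfp36 in each of the other 5 classes, between 2.25 CPM in progenitors and 4.95 CPM in endothelial cells. Ier2 had 12.7, 5.66 and 4.55 CPM in C, CC and CCC, 32, 25.0, 11.9 and 16.8 CPM in H, HH, CCH and HCH, and 5.00 and 5.203 CPM in HC and HHC. H, HH and HCH were thus above all chow libraries, and CCH was close to C, at a ratio of 0.937. For both Zfp36 and Ier2 all libraries of set S075, the chow library C included, were above all libraries of set S019. Within set S075, Zfp36 was 37.1 CPM in C and 44.2 to 114.9 CPM on HFD, and Ier2 was 12.7 CPM in C and 11.9 to 32 CPM on HFD. C is the only chow library of that set, so a comparison of diets within it rests on 1 pool. The cause of the gap between the sets was not tested. Egr1 was highest in C, at 18.0 CPM against 3.03 to 12.0 CPM elsewhere. Nr4a1, an orphan nuclear receptor gene, had the narrowest range, 6.39 to 12.3 CPM, with both WL libraries (6.67 and 6.39 CPM) just below the lowest chow library (7.58 CPM).

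**Figure D1:**
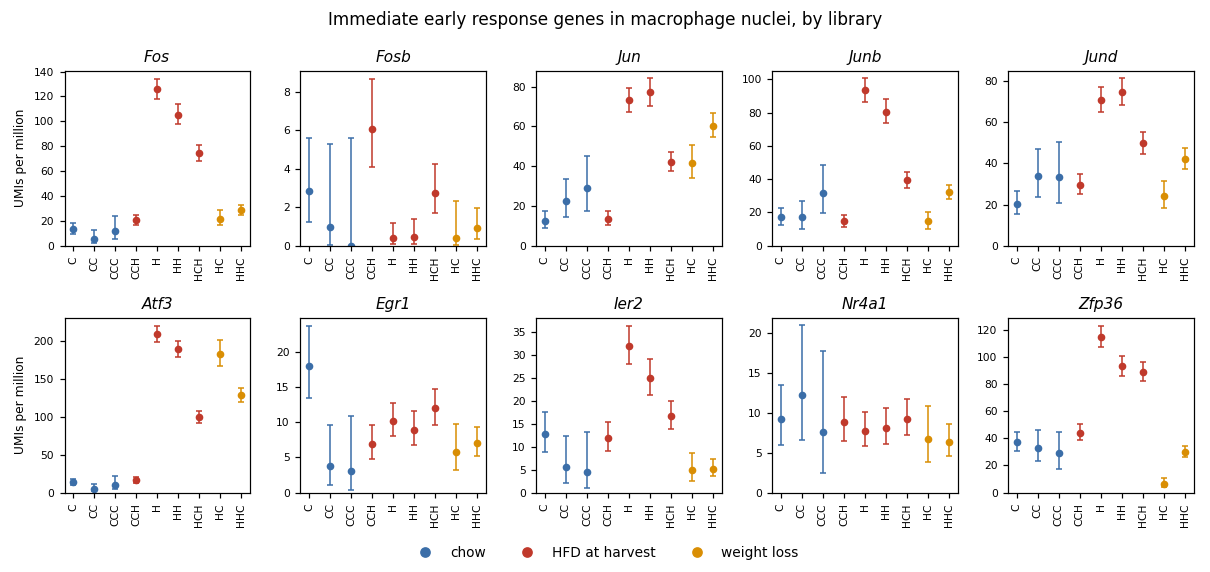
Level of each member in macrophage nuclei (vertical axis, CPM, each panel with its own scale from 0) in the 9 libraries (horizontal axis), with chow, HFD and WL libraries in different colours and exact 95% Poisson intervals that cover counting error only. Atf3 is high in H, HH, HCH, HC and HHC and low in CCH, where it is 16.4 CPM, whereas Fos and Zfp36 are high in H, HH and HCH and lower in HC and HHC, and Junb is high in H and HH, with HCH at 39.4 CPM near CCC and HHC.

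Over all kept nuclei Atf3 had 2.65 to 4.64 CPM on chow, 163.3 CPM in H, 129.9 in HH, 12.4 in CCH, 57.5 in HCH, 62.2 in HC and 79.3 in HHC. In such sums more nuclei of a class and more RNA per nucleus cannot be told apart, and macrophages were 5.27% to 8.64% of the UMIs in chow libraries and 13.9% to 28.15% in the others. The marker gate held only a part of the members' UMIs. Of all Atf3 UMIs, gated macrophages held 36.2% in H, 31.2% in HH and 41.3% in HCH, and nuclei with too few markers for any class held 58.7%, 60.1% and 46.7%. Atf3 stood at 264.7 CPM in those unassigned nuclei of H and at 7.29 CPM in those of C. Their macrophage markers summed to 5089 CPM in H and 1061 CPM in C, against 9050 and 6425 CPM in the gated macrophages of the same libraries. For Fos, unassigned nuclei held 54.6% of UMIs in H and 33.0% in C, at 140.5 and 16.7 CPM. Among them, nuclei with exactly 1 marker, of the macrophage list, had 326.6 CPM of Atf3 in H, 312.9 in HH, 44.3 in CCH, 139.6 in HCH, 237.2 in HC and 186.4 in HHC, against 3.035 to 22.7 CPM in the chow libraries. On both sides of the gate, the Atf3 level of CCH thus lay far below the other HFD and WL libraries. It was above the chow libraries in nuclei with 1 marker, but close to C in gated macrophages, at a ratio of 1.22. This grouping of the unassigned nuclei was added after seeing the data.

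The question for the state comparisons is which members differ with HFD, and which still differ after WL, beyond the spread between libraries of a state. In macrophages edgeR's quasi-likelihood test, with Benjamini-Hochberg adjustment over 14959 genes, gave Atf3 a log2 change of 3.53 ± 0.78 (SE) for HFD minus chow with an adjusted p of 0.061, and Fos a change of 2.82 ± 0.56 with an adjusted p of 0.061. For WL minus chow it gave Atf3 3.96 ± 0.85 with an adjusted p of 0.12 and Jun 1.35 ± 0.59 with an adjusted p of 0.30. All 10 members were tested and none passed an adjusted p of 0.05 in either comparison, where 0.00668% (HFD) and 0.0% (WL) of all genes passed. At an unadjusted p of 0.05, 7 of the 10 members passed for HFD, as did 4379 of 14959 genes, and 2 members passed for WL, as did 2457 genes. The log2 changes of Zfp36, Jund, Ier2, Jun and Junb for HFD were 0.88 to 1.33 with adjusted p-values of 0.099 to 0.15, and the log2 changes of Fosb, Nr4a1 and Egr1 lay between −0.27 and 0.43. The change of Ier2 for HFD was 1.97 without C. The change of Zfp36 for WL, −0.85 ± 0.51, was −0.22 ± 0.42 without HC and −2.23 ± 0.52 without HHC, and it did not pass in either fit.

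The calls depended on the library CCH, the HFD library with the lowest Atf3, Fos, Jun, Junb, Zfp36 and Ier2 levels in macrophages. Each library was left out in turn, and only the refit without CCH called a member in macrophages. That refit sets H, HH and HCH against chow, and its p-values hold only for this choice of libraries. Without CCH, edgeR called 7 of 10 members for HFD, where 27.6% of all genes tested were called. Atf3 then had a log2 change of 3.86 ± 0.41 (adjusted p = 0.0017), Fos 3.11 ± 0.31 (adjusted p = 0.0015), Junb 1.64 ± 0.39 (adjusted p = 0.014), Jun 1.57 ± 0.32 (adjusted p = 0.0082), Zfp36 1.42 ± 0.39 (adjusted p = 0.024), Ier2 1.34 ± 0.39 (adjusted p = 0.031) and Jund 1.07 ± 0.27 (adjusted p = 0.017). For WL, Atf3 (3.92 ± 0.43, adjusted p = 0.0018) and Jun (1.37 ± 0.35, adjusted p = 0.047) were called, where 5.76% of all genes were called, and Fos was at 1.23 ± 0.34 with an adjusted p of 0.061. DESeq2 on all 9 libraries called Atf3 (adjusted p = 4.1e-05), Fos (adjusted p = 6.6e-05) and Zfp36 (adjusted p = 0.040) for HFD, where it called 14.4% of all genes, and Atf3 for WL (adjusted p = 0.00023), where it called 4.55%. With the label set as a covariate no member was called, and the HFD comparison then rests on C for chow. Atf3 had a log2 change of 3.08 ± 1.21 for HFD and 4.49 ± 1.13 for WL in that fit, with adjusted p-values of 0.41 and 0.28. The HFD change of Ier2 was 0.60 ± 0.49 in it (adjusted p = 0.54), against 1.21 ± 0.42 without the covariate, and that of Zfp36 was 1.05 ± 0.66 (adjusted p = 0.47). With age as a block, an alternative added after seeing the data that sets HC and HHC against the chow libraries of their age and H against C, no member was called either, and Atf3 was at 3.76 ± 1.38 for HFD and 4.48 ± 1.18 for WL (adjusted p = 0.23 and 0.22). The directions of the small changes of Fosb and Egr1 for HFD, and of Fosb, Egr1, Ier2, Junb and Jund for WL, turned under at least 1 alternative. Mitochondrial UMIs in macrophage nuclei were 0.164% to 1.87% on chow, 0.69% to 1.39% on HFD and 2.64% and 4.07% in HC and HHC, and their part in the result was not tested.

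**Figure D2:**
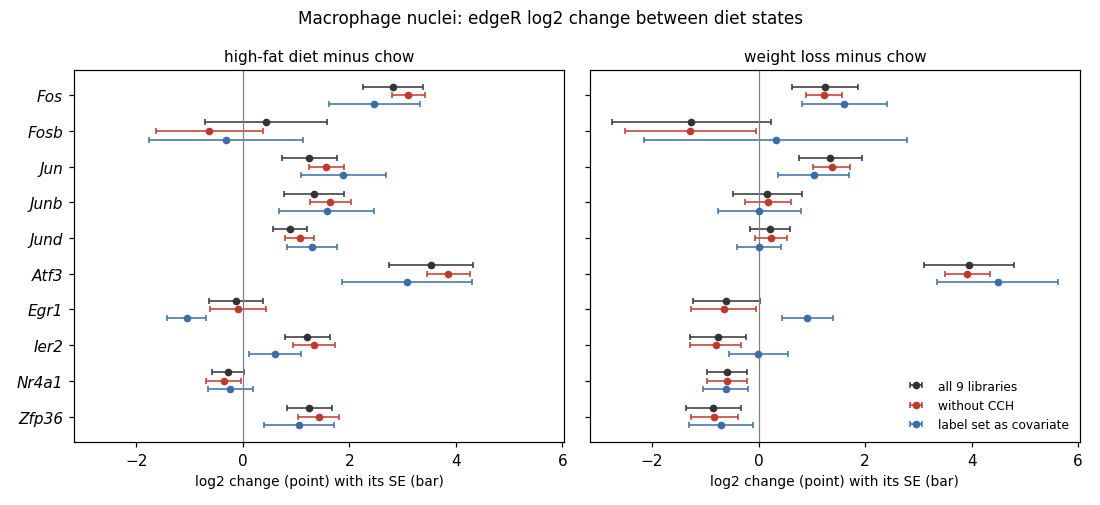
Log2 change of each member in macrophage nuclei for HFD minus chow and WL minus chow (horizontal axis, edgeR estimate as a point with its SE as a bar) from all 9 libraries, without CCH, and with the label set as a covariate. Atf3 and Fos have the largest HFD changes, 3.53 and 2.82 over all libraries, and after WL the Atf3 change is 3.96 while that of Zfp36 lies below 0 at −0.85 and at −0.22 without HC.

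Since each group is 1 library, pairs of groups are given as ratios of CPM with exact 95% intervals that cover counting error only, and a member is said to be past the fold where the ratio is at least 2-fold either way and its interval leaves out 1. In macrophages H had 15.6-fold more Atf3 than C (interval 11.3 to 22.2) and 9.62-fold more Fos (6.92 to 13.7). Jun was at 5.91-fold, Junb at 5.51-fold, Jund at 3.46-fold, Zfp36 at 3.10-fold and Ier2 at 2.52-fold. These 7 of the 9 members with at least 20 UMIs were past the fold upwards, where 35.6% of all genes were past it in either direction. Egr1 had a ratio of 0.567 (0.392 to 0.826) and Nr4a1 a ratio of 0.845 (0.523 to 1.40). HH against CC gave the same 7 members past the fold upwards, where 37.0% of genes were past it. The Atf3 ratio was 40.1 (17.2 to 123.9). Against C, the chow library of the same label set, the Atf3 ratio of HH was 14.1 (10.2 to 20.03), and 6 members were past the fold upwards and 1 downwards, where 35.9% of genes were past it. Ier2 was then short of the fold at 1.96 (1.36 to 2.90), and Egr1 was lower at a ratio of 0.494 (0.333 to 0.735), whereas against CC, which had 4 UMIs of it, Egr1 was at 2.36 (0.872 to 8.95).

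After WL fewer members were past the fold. HC against CC had Atf3 at 38.95-fold (16.6 to 120.6) and Fos at 3.83-fold (1.65 to 10.9) upwards and Zfp36 at a ratio of 0.202 (0.104 to 0.3745), which are 3 of the 7 members with enough UMIs, where 20.8% of genes were past the fold. HHC against CCC had Atf3 at 12.2-fold (5.87 to 30.3), Fos at 2.37-fold (1.18 to 5.56) and Jun at 2.10-fold (1.33 to 3.52), 3 of 9 members, where 14.8% of genes were past it. Junb and Zfp36, which were high in H and HH, had ratios of 1.01 (0.644 to 1.66) and 1.05 (0.654 to 1.78) in HHC against CCC. The last pair, HCH against CCH, compares 4 weeks of HFD in mice with and without an earlier period of HFD. Atf3 was 6.104-fold higher in HCH (4.85 to 7.78), Fos 3.68-fold (2.96 to 4.597), Jun 3.13-fold (2.39 to 4.13), Junb 2.71-fold (2.085 to 3.56) and Zfp36 2.01-fold (1.72 to 2.35), while Fosb was lower at a ratio of 0.455 (0.245 to 0.827). These were 6 of 10 members, where 18.4% of genes were past the fold, and Zfp36 was at the edge of it. With another scaling (TMM), 4 members were past it upwards and 1 downwards (16.9% of genes). With no marker of other classes allowed the counts were also 4 and 1 (18.1%), and with 1 marker more they were 5 and 0 (17.0%). Nr4a1 had a ratio of 1.04 (0.6995 to 1.555). HC and HH share the library CC in these pairs.

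**Figure D3:**
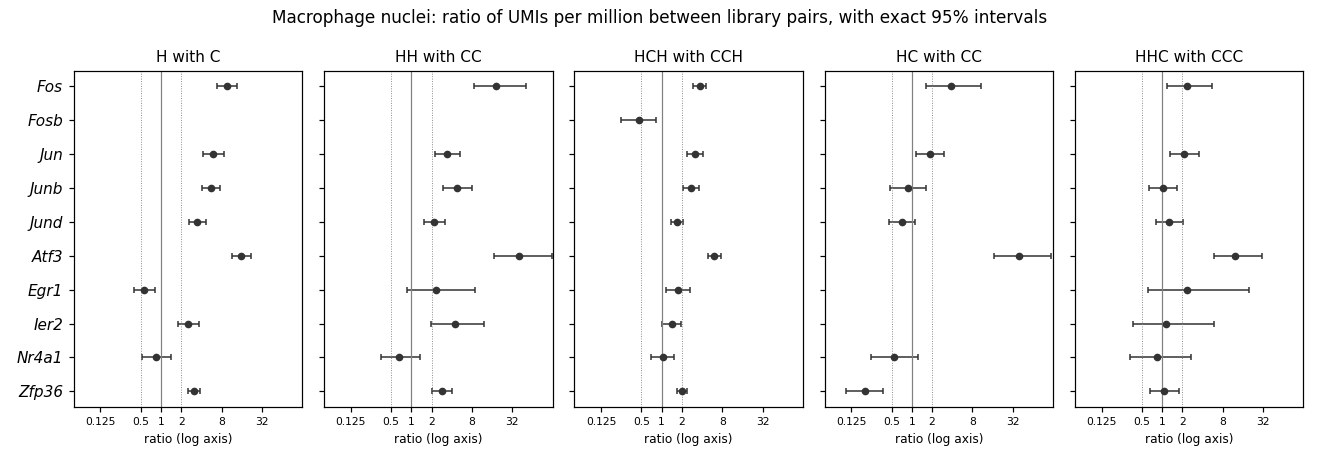
Ratio of CPM in macrophage nuclei between library pairs (horizontal log axis) for each member with at least 20 UMIs, with exact 95% intervals for counting error and dotted lines at the fold of 2 in either direction. Atf3 lies at 6.104 or above in all 5 pairs, and Zfp36 lies above 1 in H with C, HH with CC and HCH with CCH and at 0.202 in HC with CC.

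Macrophages of obese epiAT include lipid-associated cells that carry Trem2 and Gpnmb, beside resident-type cells that carry Mrc1 and Cd163. Macrophage nuclei with Gpnmb or Trem2 and neither Mrc1 nor Cd163 were 1.02% to 8.73% of macrophages on chow, 24.5% in H, 22.5% in HH, 1.40% in CCH, 16.0% in HCH, 39.2% in HC and 32.6% in HHC. Atf3 was higher in them than in Mrc1 or Cd163 nuclei of the same library, at 438.9 against 70.6 CPM in H, 420.7 against 68.6 in HH, 249.4 against 48.35 in HCH, 282.0 against 60.2 in HC and 237.0 against 53.25 in HHC. The ratio ran from 4.45 (3.72 to 5.35) in HHC to 6.22 (5.4 to 7.19) in H. For Fos it ran from 1.77 to 2.92, for Jun from 1.71 to 3.29 and for Junb from 1.45 to 2.08, and the Junb interval in HC reached below 1. For Jund it ran from 1.44 in HCH to 2.86 in HC. For Zfp36, over H, HH, HCH and HHC, it ran from 1.24 in HHC (0.865 to 1.76) to 1.86 in HCH. For Egr1, Ier2 and Nr4a1 the ratios lay between 0.6135 and 1.68, and all their intervals held 1 except that of Ier2 in HH (1.61, 1.09 to 2.37). The C, CC, CCC and CCH libraries had 5 to 22 such nuclei each, too few for a ratio. In the 10 such nuclei of C Atf3 was at 310.2 CPM, in the 19 of CCH at 103.1 CPM and in the 22 of CCC at 17.4 CPM. These nuclei held only 38680, 77592 and 57541 UMIs of all genes, so their Atf3 levels rest on very few UMIs.

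In the Mrc1 or Cd163 nuclei the Atf3 level was 6.115, 3.04 and 7.54 CPM in C, CC and CCC, 70.6, 68.6, 12.6 and 48.35 CPM in H, HH, CCH and HCH, and 60.2 and 53.25 CPM in HC and HHC. Fos in these nuclei was 12.2, 4.06 and 11.3 CPM on chow, 94.0, 82.1, 16.4 and 47.7 CPM in H, HH, CCH and HCH, and 10.0 and 16.2 CPM after WL. So within this subset the WL levels of Fos overlapped those of chow, and those of Atf3 did not. A fit on this subset alone, added after seeing the data, gave Atf3 3.05 ± 0.59 for HFD and 3.32 ± 0.65 for WL (edgeR, adjusted p = 0.064 and 0.16) and Fos 2.52 ± 0.58 for HFD (adjusted p = 0.064). The WL change of Fos was 0.47 ± 0.70 in this subset, against 1.25 ± 0.62 in all macrophages. Jun was at 0.57 ± 0.41 for HFD and 0.70 ± 0.48 for WL, against 1.25 ± 0.52 and 1.35 ± 0.59 in all macrophages.

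**Figure D4:**
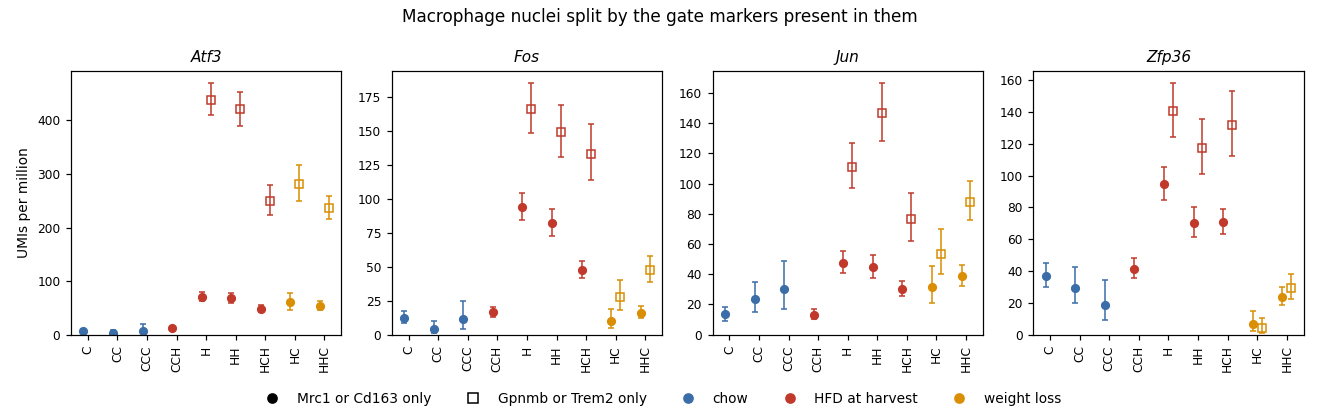
Level of members (vertical axis, CPM from 0) in macrophage nuclei with Mrc1 or Cd163 only (filled circles) and with Gpnmb or Trem2 only (open squares) in each library, coloured by diet state, with exact 95% Poisson intervals. In H the Atf3 level is 438.9 CPM in Gpnmb or Trem2 nuclei and 70.6 CPM in Mrc1 or Cd163 nuclei, and HC and HHC show the same order.

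The share of macrophage nuclei with an Atf3 UMI was compared after thinning each nucleus to 1000 UMIs, which left out 1 to 81 shallower nuclei per library. C, CC and CCC had 0.843%, 1.04% and 0.400% of such nuclei. The share was 14.6% (Clopper-Pearson 95% interval 13.25 to 16.1) in H, 13.2% in HH, 1.33% in CCH, 7.67% in HCH, 10.1% (7.92 to 12.7) in HC and 10.15% in HHC. Without thinning it was 30.7% in H and 2.35% in C. In adipocyte nuclei, which had a median of 2824 to 5372 UMIs against 2340 to 3810 in macrophages, the thinned share was at most 2.46% in any library. Nuclei with UMIs of at least 2 of the 10 members after thinning were 1.48%, 0.692% and 1.20% of macrophages in C, CC and CCC, 13.2%, 11.04%, 1.71% and 6.63% in H, HH, CCH and HCH, and 1.84% and 3.56% in HC and HHC. Were the members detected independently of each other, the shares would be 0.923%, 0.782% and 1.155% in C, CC and CCC. They would be 11.6%, 9.53%, 1.10% and 4.99% in H, HH, CCH and HCH, and 1.75% and 3.67% in HC and HHC. Nuclei with a UMI of any member were 43.0% in H, 20.9% in HC and 13.2% in C.

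The class comparison asks which cell class holds more of each member, with the library as a block and the 9 libraries as replicates. For each class its level minus the mean of the other 5 was tested by edgeR over 12980 genes, among them 9 members without Fosb. Macrophages had more Atf3 (3.07 ± 0.23 on the log2 scale, adjusted p = 2.5e-16), Fos (2.21 ± 0.20, adjusted p = 1.2e-13), Zfp36 (0.95 ± 0.13, adjusted p = 1.9e-08) and Junb (0.74 ± 0.16, adjusted p = 8.5e-05), and less Egr1 (−0.73 ± 0.26, adjusted p = 0.011). These are 5 of 9 members, where 68.1% of all genes passed in macrophages, so the count itself is not above the background. Jun, Jund and Ier2 in macrophages differed by 0.03 to 0.09 on this scale and did not pass.

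Progenitors, the fibroblast-like cells that form new adipocytes, had more Egr1 (1.65 ± 0.21, adjusted p = 3.7e-09), Ier2 (0.50 ± 0.17), Nr4a1 (0.46 ± 0.16) and Junb (0.42 ± 0.16), 4 of 9 members with 50.6% of all genes called. The Junb call was lost with 1 marker more, with no upper limit on genes and without C, H or HCH (0.31 to 0.40, adjusted p = 0.057 to 0.18), and the Nr4a1 call with 1 marker more (0.25, adjusted p = 0.29) and without C (0.36, adjusted p = 0.077). Mesothelial nuclei had more Nr4a1 (1.16 ± 0.20, adjusted p = 4.6e-06), Atf3 (0.87 ± 0.35), Jund (0.86 ± 0.18) and Egr1 (0.75 ± 0.30) and less Ier2 (−0.86 ± 0.29) and Zfp36 (−0.47 ± 0.19), with 45.5% of genes called. The Atf3 call in mesothelial nuclei rests on CCH, with 46 of the UMIs, and the difference was 0.17 without it (adjusted p = 0.70). The Egr1 call was lost under 4 other settings, down to 0.23 (adjusted p = 0.76) with no marker of other classes allowed, and without C, HH or HCH (0.51 to 0.62). The Zfp36 call was lost under 12 of 16 alternatives (adjusted p up to 0.35), and the Ier2 call with 1 marker more (adjusted p = 0.083) and without HH (adjusted p = 0.061), while Nr4a1 and Jund were called under all 16. Endothelial nuclei had more Ier2 (1.00 ± 0.21, adjusted p = 6.5e-05) and no other call, with 51.2% of genes called. In adipocytes, Zfp36 was higher (0.92 ± 0.13, adjusted p = 4.3e-08) and Atf3, Junb, Egr1, Nr4a1, Fos and Jund were lower (−0.62 to −1.54), with 68.3% of genes called. Epithelial nuclei had less Atf3, Fos and Zfp36 (−1.27 to −1.76), with 54.2% of genes called. The adipocyte call of Fos and the epithelial call of Atf3 were lost with no marker of other classes allowed (adjusted p = 0.073 and 0.11), and the epithelial call of Fos with 1 marker more (adjusted p = 0.070). Jun was called in no class, and its level differed more between libraries than between classes. Of the sum of squares of log2(CPM + 1) over 6 classes and 9 libraries, the library took 61.8% and the class 7.63% for Jun. For Zfp36 the library took 66.7%, for Junb 50.2%, for Atf3 41.6% and for Jund 38.95%, against a median of 17.6% over 8243 genes with a mean of at least 20 CPM, and the other 5 members were below that mean.

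**Figure D5:**
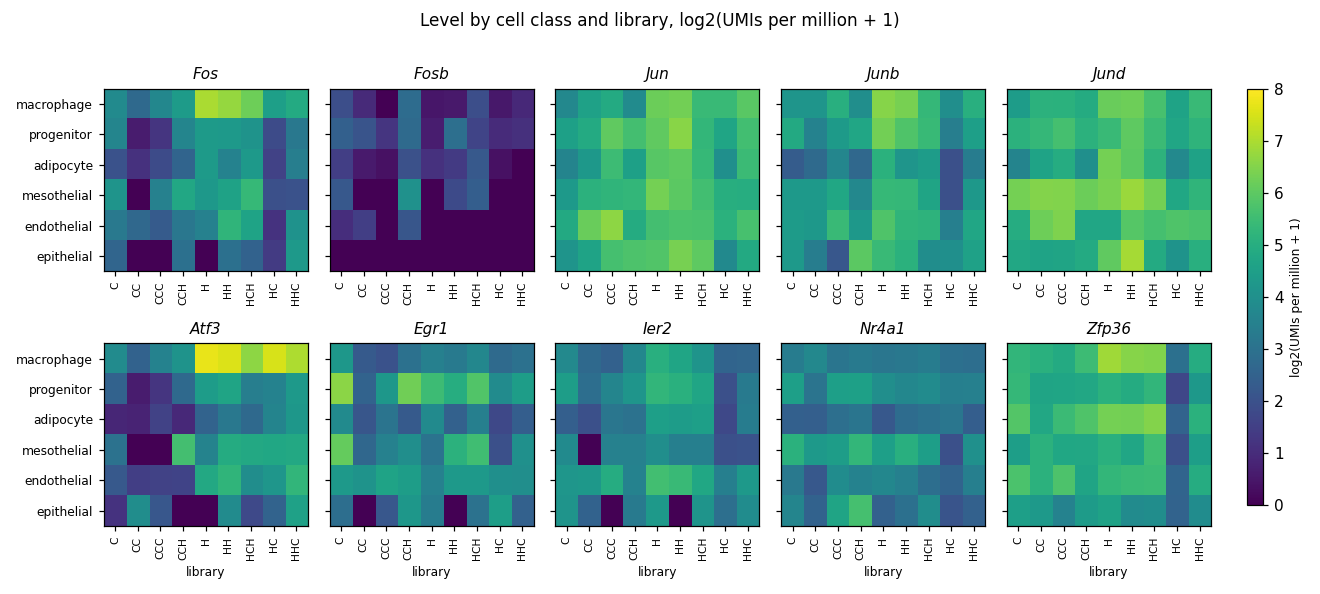
Level of each member, as log2(CPM + 1) on a colour scale from dark (0) to bright, by cell class (rows) and library (columns). Fos is brightest in the macrophage row of H, HH and HCH, Atf3 in that row of H, HH, HC and HHC, Egr1 is brightest in the progenitor row of C at 95.7 CPM, and the HC column is dark for Zfp36 in every row.

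Members in the other classes followed partly different orders. Egr1, a zinc-finger factor induced through the serum response factor, was at 95.7 CPM in progenitors of C, 4.78 in CC and 17.7 in CCC, 43.9 in H, 30.45 in HH, 76.5 in CCH and 55.3 in HCH, and 13.5 in HC and 20.9 in HHC. All libraries of set S075, the chow library C included, were above all libraries of set S019. The gap was thus present among chow libraries alone, with C at 95.7 CPM and CC and CCC at 4.78 and 17.7 CPM. These chow libraries also differ in age. Within set S075 all HFD libraries, at 30.45 to 76.5 CPM, lay below C, and that comparison of diets rests on C for chow. The cause of the gap between the sets in Egr1 was not tested. The sets were apart in the same direction, with C among the high libraries, for Fos, Junb, Ier2 and Zfp36 in progenitors. So they were for Fosb and Zfp36 in adipocytes and for Fos and Nr4a1 in mesothelial nuclei. For these, too, a comparison of diets within set S075 rests on C for chow. The share of all genes with sets apart in this way is not given here. Such gaps are therefore not shown to be particular to the members. Fos in progenitors was 11.4 CPM in C and 11.5 to 19.65 CPM on HFD, against 0.531 to 8.22 CPM in set S019. Ier2 there was 17.1 to 37.5 CPM in set S075, with C at 21.0 CPM, and 2.895 to 11.6 CPM in set S019, and Zfp36 was 26.8 to 38.8 CPM, with C the highest, and 2.25 to 25.2 CPM. For Egr1 in progenitors the direction of a pair depended on its control, as HH had 6.37-fold more than CC (3.28 to 14.1) and a ratio of 0.318 (0.267 to 0.378) against C. Egr1 in mesothelial nuclei was also highest in C, at 68.0 CPM against 2.88 to 45.8 elsewhere. Jund in mesothelial nuclei was 72.6 to 109.7 CPM on chow and HFD and 25.9 and 36.5 CPM in HC and HHC, and its WL change of −1.42 ± 0.35 did not pass (edgeR, adjusted p = 0.30). Jun in endothelial nuclei was highest in chow libraries CC (71.1 CPM) and CCC (99.1), and the other 7 libraries had 28.25 to 51.75 CPM.

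Atf3 in adipocytes was 0.812, 0.723 and 2.01 CPM in C, CC and CCC, 4.83, 8.24, 0.881 and 5.60 CPM in H, HH, CCH and HCH, and 11.2 and 17.8 CPM in HC and HHC. Both WL libraries were thus the highest, with a log2 change of 3.64 ± 0.70 for WL minus chow that did not pass (edgeR, adjusted p = 0.28). These levels rest on 3 to 39 UMIs per library. Ier2 and Fos in adipocytes were at 20.6 to 21.8 CPM and 10.8 to 19.3 CPM in H, HH and HCH, at 7.04 and 4.99 CPM in CCH and at 2.89 to 7.74 and 1.205 to 3.09 CPM on chow. The HFD change of Fos was 2.26 ± 0.61 on the log2 scale and did not pass (edgeR, adjusted p = 0.096). In progenitors Atf3 was 0.531 to 4.72 CPM on chow, 5.65 to 24.4 CPM on HFD and 10.6 and 18.9 CPM after WL, and Junb was 10.6 to 27.9 CPM on chow, 77.0 in H, 55.0 in HH, 25.9 in CCH and 40.7 in HCH, so that CCH was inside the chow range.

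None of the members tested in adipocytes (10), progenitors (10), mesothelial (8), endothelial (8) and epithelial nuclei (3) passed for HFD or for WL. The share of all genes that passed was 0.0124% for HFD in mesothelial nuclei and 0.0% in the other 9 of these 10 comparisons. The members with the largest changes not given above were, for HFD, Atf3 and Fos in progenitors (2.30 ± 0.63 and 1.48 ± 0.67), in mesothelial nuclei (2.88 ± 0.69 and 1.40 ± 0.63) and in endothelial nuclei (2.60 ± 0.88 and 1.51 ± 0.70), Atf3 in adipocytes (1.90 ± 0.66), and Junb and Jun in epithelial nuclei (1.55 ± 0.67 and 1.04 ± 0.42). For WL they were Atf3 in progenitors (2.37 ± 0.70), mesothelial nuclei (2.74 ± 0.83) and endothelial nuclei (3.16 ± 0.96), with adjusted p-values of 0.26 to 0.62, and Zfp36 in endothelial nuclei (−1.49 ± 0.52, adjusted p = 0.65). The WL changes of Fosb in adipocytes (−2.21 ± 1.38) and progenitors (−1.66 ± 1.00), of Egr1 in mesothelial nuclei (−1.86 ± 1.23) and of Junb and Jun in epithelial nuclei (0.69 ± 0.82 and −0.45 ± 0.54) were smaller than 2 SE. With the label set as a covariate the HFD change of Fos was 0.38 ± 0.49 in progenitors (adjusted p = 0.71) and 0.75 ± 0.76 in mesothelial nuclei (adjusted p = 0.87). Several of these values rest on the chow library C. Without it the HFD changes in progenitors were 3.88 for Atf3 and 4.06 for Fos and the WL change of Atf3 there was 3.96, where CC and CCC have 1 and 2 UMIs of Atf3, and none of them passed. In mesothelial nuclei all 6 chow UMIs of Atf3 are in C, and CC and CCC have none, which allows up to 9.79 and 19.2 CPM. Without C the size of its change there is therefore not set by the data, and its HFD change was called (adjusted p = 0.049), where 0.861% of genes were called. The mesothelial HFD change of Fos was 0.89 without CC, and the endothelial WL change of Zfp36 was −0.74 without HC and −3.11 without HHC. In epithelial nuclei the HFD change of Jun was 0.68 without C and 1.57 without CCC, that of Junb was 2.49 without C, and the WL changes of Jun and Junb ran from −0.81 to 0.067 and from 0.31 to 1.65 when each library was left out. Without CCH, 5 of 9 members were called for HFD in adipocytes (Atf3, Fos, Ier2, Junb and Jund), where 16.8% of genes were called, 2 of 10 in progenitors (Atf3 and Junb), where 13.8% were called, and 1 of 8 in endothelial nuclei (Atf3), where 3.86% were called. For WL without CCH, Atf3 was called in adipocytes, where 0.176% of genes were called. DESeq2 called Ier2 and Fos for HFD in adipocytes (9.19% of all genes), Atf3 and Junb in progenitors (8.57%) and Atf3 in mesothelial nuclei (3.47%), and for WL it called Atf3 in adipocytes (0.698%) and in progenitors (1.72%). With age as a block edgeR called Atf3 for WL in progenitors (3.92 ± 0.62, adjusted p = 0.010), where 0.937% of genes were called, and no other member in any class.

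In library pairs, the members past the fold were 5 of 9 in adipocytes of H against C, where 28.8% of genes were past it, 6 of 8 for HH against CC (35.2%), 2 of 8 for HC against CC (11.5%), 2 of 9 for HHC against CCC (13.2%) and 5 of 8 for HCH against CCH (16.1%). All of these were upwards, except Zfp36 in HC against CC. Jund was 7.06-fold higher in adipocytes of H than of C (5.185 to 9.53) and Junb 8.50-fold (5.14 to 13.8). Another scaling of the adipocyte libraries (TMM) lowers all ratios of H against C, by 0.52 on the log2 scale. Against C, HH had 7 of 10 members past the fold in adipocytes, 1 of them, Egr1, downwards (34.6%), and 3 of 10 in progenitors, Egr1 again downwards (29.9%). In progenitors they were 5 of 10 for H against C (28.0%), Fosb and Egr1 downwards, and 6 of 10 for HH against CC (31.2%), all upwards. They were 3 of 8 for HC against CC (13.0%), Zfp36 downwards, and 3 of 9 for HHC against CCC (11.8%), Nr4a1 downwards. The count was 1 of 10 for HCH against CCH (13.8%). The member in that last pair was Fosb, lower in HCH at a ratio of 0.365 (0.190 to 0.668). Zfp36 in HC against CC had a ratio of 0.181 (0.102 to 0.303) in adipocytes and 0.0921 (0.0351 to 0.205) in progenitors.

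Macrophage markers were also counted in the nuclei of other classes. The summed macrophage markers were 511 to 599 CPM in adipocytes on chow, 561 to 991 CPM on HFD and 697 to 1974 CPM after WL, and in progenitors 226 to 390, 209 to 1591 and 868 to 2444 CPM. In H, progenitors had 16.1% of the level of macrophage markers that macrophages had, 9.715% of their Atf3 and 15.6% of their Fos. In HHC the progenitors had 22.2% of the markers, 14.65% of the Atf3 and 28.6% of the Fos. Adipocytes in HC had 9.71% of the markers and 6.103% of the Atf3, and those in HHC had 18.0% and 13.8%. The part that RNA of macrophages has in the Atf3 and Fos values outside macrophages was not tested. For Jun the levels in progenitors were 38.5 to 94.2 CPM on HFD, 88.9% of the macrophage level in H and 354.1% in CCH, where the markers were at 16.1% and 3.45%. Atf3 in mesothelial nuclei of CCH was at 47.7 CPM, 291.5% of the macrophage level, with macrophage markers at 6.555%.

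Whether a change in macrophages differed from the mean change of the other 5 classes was tested in a fit over all 6 classes, added after seeing the data. For HFD it differed for Zfp36, by 1.14 ± 0.24 on the log2 scale (edgeR, adjusted p = 0.0028), 1 of 9 members, where 4.28% of all genes passed. The label set was not in this fit, and macrophage Zfp36 was higher in every library of set S075 than in any of set S019. The part of the label set in the difference was not tested. For WL the change in macrophages differed for Jun, by 1.47 ± 0.35 (adjusted p = 0.015), 1 of 9 members, where 2.55% of genes passed. For Atf3 the difference was 1.44 ± 0.76 for HFD (adjusted p = 0.36) and 1.27 ± 0.79 for WL (adjusted p = 0.52), and for Fos it was 1.18 ± 0.58 for HFD (adjusted p = 0.32), so a difference between macrophages and the other classes was not shown for these over all 9 libraries. When each library was left out, the Atf3 difference ran from 0.57 to 1.71 for HFD and from 0.40 to 1.84 for WL. In these refits 0.84% to 8.84% of all genes passed for HFD. Without CCH the Atf3 difference for HFD was 1.71 (adjusted p = 0.039), and the Jun difference for WL was not called without C, CC, CCC, HC or HHC (1.34 to 1.53, adjusted p = 0.062 to 0.16).

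Related genes were read from lists of other AP-1 genes (8), other immediate early genes (21), feedback genes that shut the response down (18), upstream kinases and factors (20) and heat shock genes (11). In macrophages none of their members passed for HFD or WL, where 0.00668% and 0.0% of all genes passed. At an unadjusted p of 0.05, 6 of 19 other immediate early genes, 3 of 11 heat shock genes, 3 of 17 feedback genes, 2 of 20 upstream genes and 0 of 8 other AP-1 genes passed for HFD, against 29.3% of all genes, and 6, 2, 4, 1 and 1 for WL, against 16.4%. The median log2 change for HFD was 0.40 for other immediate early genes, 0.38 for heat shock genes, −0.01 for upstream genes, −0.09 for feedback genes and −0.21 for other AP-1 genes, beside 1.23 for the 10 members and 0.06 over all genes. For WL the medians were −0.15, 0.24, −0.06, −0.58 and −0.51, beside −0.21 for the members and 0.01 over all genes. In the class comparison, 35.1% of all genes were higher and 33.1% lower in macrophages, 68.1% in all. The called shares were 68.4% of upstream genes, 64.7% of other immediate early genes, 66.7% of other AP-1 genes, 62.5% of feedback genes and 30% of heat shock genes, so that no list had a share well above that of all genes. The comparison gave, in macrophages, 11 higher and 2 lower of 19 upstream genes, among them the kinase genes Mapk14 (1.42 ± 0.07) and Rps6ka1 (2.38 ± 0.15) and the factor gene Elk3 (1.59 ± 0.13). Of 17 other immediate early genes 9 were higher and 2 lower in macrophages, led by lower Ccn1 (−2.06 ± 0.23), higher Egr2 (2.25 ± 0.30) and lower Ccn2 (−1.63 ± 0.22). Of 6 other AP-1 genes 3 were higher, Batf3 (3.41 ± 0.17), Batf (4.39 ± 0.25) and Jdp2 (1.13 ± 0.19), and 1 was lower. Of 16 feedback genes 5 were higher, led by Spred1 (1.76 ± 0.07), Zfp36l2 (1.20 ± 0.09) and Dusp6 (1.51 ± 0.13), and 5 were lower. Of 10 heat shock genes none was higher and 3 were lower, Hspb1 (−1.14 ± 0.23), Hsp90aa1 (−0.50 ± 0.12) and Hspa1b (−0.62 ± 0.23).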

How the data were processed

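The 9 libraries were snRNA-seq of nuclei from frozen epiAT on the 10x 3′ platform. The deposited UMI counts per gene and nucleus were made by the authors with Cell Ranger 6.1.2 against mm10 with intronic reads included, and Seurat 4.1.0 is also named in the submitters' processing notes. No sample column was left unmapped (0). Raw counts were used as deposited, without Malat1 and the mitochondrial genes in the totals.

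Nuclei with 500 to 3000 genes and at most 40000 UMIs were kept. A marker was present where its UMIs were above background in that nucleus (Poisson tail 0.003), and a nucleus was assigned with at least 2 markers of a class and at most 1 of another, in 3 passes. This rule was chosen after the yields of the gate were seen. No doublet caller was run, and mixed nuclei (2.67% to 7.88%) and those over 3000 genes were set aside. Between 24.0% and 41.4% of assigned nuclei were at the minimum of 2 markers.

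UMIs were summed per class and library and tested with edgeR 4.0.16 (quasi-likelihood, TMM, R 4.3.3), with Benjamini-Hochberg adjustment over all genes tested and a threshold of 0.05. The edgeR test returns no SE. Each SE given with an edgeR change is its absolute log2 change divided by the square root of its F statistic. State comparisons used libraries as replicates and shared 1 estimate of spread over chow, HFD and WL, so they share the chow libraries. Class comparisons had the library as a block, and gate markers were left out of the genes tested. No label says that libraries of a state are separate samples of 1 group, so p-values measure only the spread between these pools. Pairs were compared by exact conditional intervals (95%) for genes with at least 20 UMIs, and shares by Clopper-Pearson intervals after thinning to 1000 UMIs per nucleus. Intervals and limits cover counting error only. Total depth was 22599619 to 66615262 UMIs per library. DESeq2 1.42.0, other size factors, other filters, other gates, the label set as a covariate and leaving out each library were alternatives. The fit on Mrc1 or Cd163 macrophages, the comparison of changes between classes, age as a block and leaving out CCH and HC together were added after seeing the data. Scripts were tested on simulated data (Python 3.11.15, NumPy 2.4.6, pandas 2.3.3, SciPy 1.17.1).

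The members, the gene lists and the tests were chosen with earlier results of these data known. All 10 members are given by range, and full statistics of a state comparison for those with an adjusted p under 0.05 and for the 2 with the largest absolute change. From the other lists up to 3 genes with the smallest adjusted p under 0.05 are named. Genes most like the members were the 10 with the highest Pearson r, among genes with a mean of at least 20 CPM.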

Additional observations from a re-analysis of the deposited data

Results flagged for a closer look

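Among 54 groups of 4 HFD libraries, 1 for each member and class with values, 3 held a library far from the others by Dixon's criterion, which flags about 1 in 20 groups by chance. Ier2 in adipocytes was 7.04 CPM in CCH, where the nearest of the other HFD libraries had 20.6 CPM. Ier2 in mesothelial nuclei was 14.5 CPM in H, where the nearest had 10.4 CPM. It had 44 UMIs there over all libraries together, and the criterion takes no account of counting error. Jun in endothelial nuclei was 29.1 CPM in CCH, where the nearest had 48.3 CPM.

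The change in macrophages differed from the mean change of the other 5 classes for Zfp36 with HFD, by 1.14 on the log2 scale, and for Jun with WL, by 1.47 on the log2 scale, each by a test of the difference in edgeR over all genes. The label set was not in that fit, and its part in these differences was not tested.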

How the results depend on the processing

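The counts of members called for HFD or WL, 0 in all 12 state comparisons, depended on the test, the filter and the library CCH. With the share of all genes called in brackets, DESeq2 called 2 members for HFD (9.19%) and 1 for WL (0.698%) in adipocytes, 2 (8.57%) and 1 (1.72%) in progenitors, 1 for HFD in mesothelial nuclei (3.47%) and 3 (14.4%) and 1 (4.55%) in macrophages. Without a filter on low counts edgeR called 2 for HFD (3.21%) and 1 for WL (0.238%) in adipocytes and 1 (3.53%) and 1 (0.607%) in mesothelial nuclei. With no upper limit on genes it called 2 for HFD in macrophages (4.07%). Without CCH and HC together it called 5 for HFD (17.9%) and 1 for WL (0.61%) in adipocytes, 2 for HFD in progenitors (15.4%), 1 for HFD in mesothelial nuclei (10.1%), 7 for HFD (25.9%) and 1 for WL (3.45%) in macrophages and 1 for HFD in endothelial nuclei (4.43%). Leaving out each library gave 0 to 5 for HFD (0% to 16.8% of all genes) and 0 to 1 for WL (0% to 0.176%) in adipocytes, 0 to 2 for HFD in progenitors (0% to 13.8%), 0 to 1 for HFD in mesothelial (0% to 8.86%) and in endothelial nuclei (0% to 5.71%), 0 to 7 for HFD (0% to 27.6%) and 0 to 2 for WL (0% to 5.76%) in macrophages, and 0 to 0 in the other 5 state comparisons (0% to at most 6.15%). Over the alternatives the macrophage HFD change of Atf3 had adjusted p-values of 4.1e-05 to 0.41 and that of Fos 6.6e-05 to 0.41, and no alternative turned either direction. In the class comparisons, leaving out each library gave 7 to 8 members in adipocytes (65.2% to 67.4% of all genes), 3 to 4 in progenitors (45.9% to 49.6%), 3 to 6 in mesothelial nuclei (39.3% to 42.7%), 5 to 6 in macrophages (65.2% to 67.3%), 1 to 4 in endothelial (47.4% to 49.6%) and 3 to 4 in epithelial nuclei (51.1% to 55%). The mesothelial count of 6 was 3 with 1 marker more (39.1%), the endothelial count of 1 was 2 with DESeq2 (52.8%) and 2 with no upper limit on genes (51.4%), and the epithelial count of 3 was 5 without a filter (35.4%) and 5 with no upper limit (63%). The difference of changes was called for 1 to 2 members for HFD (0.84% to 8.84%) and 0 to 1 for WL (0.147% to 4.25%) when each library was left out.

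Of the library pairs, progenitors of HH had 6 members past the fold against CC (31.2% of all genes) and 3 against C (29.9%), with Egr1 reversed to a log2 ratio of −1.65 against C. Progenitors of HCH against CCH had 0 with 1 marker more (13.4%) and 0 with no marker of other classes (13.1%). Adipocytes of H against C had 8 with no upper limit on genes (38.2%), and those of HHC against CCC had 1 with 1 marker more (11.8%) and 1 with no marker of other classes (11.9%). In macrophages the HFD change of Fosb turned direction, at −0.32 with the label set, −0.48 with no marker of other classes, −0.60 without CCH and HC and −0.63 to 2.02 when each library was left out, as did that of Egr1, at 0.0092 with no marker of other classes and −0.46 to 1.40 when each was left out. The macrophage WL changes of Fosb and Egr1 were 0.32 and 0.91 with the label set and −1.90 to 0.32 and −0.94 to 0.92 when each library was left out. Those of Junb and Jund were −0.10 and −0.17 in Mrc1 or Cd163 nuclei and −0.43 to 0.55 and −0.14 to 0.501 when each was left out, and that of Ier2 was −0.96 to 4.6e-05. Other named changes that turned direction were the mesothelial WL change of Egr1, at 0.29 with the label set and −3.37 to 0.29 when each library was left out, the epithelial WL change of Jun, at −0.81 to 0.067 when each was left out, and the difference of Fos changes for HFD, at −0.56 to 1.53. The causes were not tested. The labels give no replicate numbers, so the paired analysis used age as a replicate block, which rests the HFD change on H and C alone and leaves 2 residual degrees of freedom. It called 1 member for WL in progenitors (0.937%) and none elsewhere, and among the named changes it turned the direction of Fosb for HFD (−2.91) and of Fosb (0.28), Egr1 (0.92), Ier2 (0.032), Junb (−0.057) and Jund (−0.037) for WL in macrophages, and of Egr1 for WL in mesothelial nuclei (0.042).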

Other observations

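The genes whose levels were most like those of the members, by Pearson r with the members' mean over 54 class-by-library values of log2(CPM + 1), each centred on its class, were Gm26532 (0.88), Hnrnpa3 (0.88), Gas2l1 (0.86), Sat1 (0.86), Ostc (0.86), Ndufaf4 (0.86), Pdia3 (0.84), Cdc42 (0.84), Crebzf (0.84) and 2610001J05Rik (0.84). They were ranked among 8238 genes with a mean of at least 20 CPM. The mean is over all 10 members. The 5 of them that reach that level (Atf3, Jun, Junb, Jund and Zfp36) had an r of 0.44 to 0.79 with it, below all 10 genes listed. The 54 points share 9 libraries and their depth, so that these values are a description.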
